A study of Mus musculus with 29 samples.

Results

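The genes of MHC class II antigen presentation were followed in the aortic arch of WT and DNA repair-deficient mice under ad libitum (AL) feeding and dietary restriction (DR). The genes were taken from a fixed list of symbols (H2-Aa, H2-Ab1, H2-Eb1, H2-DMa, H2-DMb1, Cd74 and Ciita) that was matched to the Ensembl identifiers of the count table, so that 7 of its 56748 genes are described here. Below, a gene is called where the adjusted p was no higher than 0.05 with a change of 1.2-fold or more. All 6 members with enough counts for a test were called lower on DR in WT mice, by 2.52-fold to 6.01-fold, where 0.939% of the 12353 genes tested were called lower. In Ercc1Δ/− mice 2 of them, H2-Ab1 and H2-Eb1, were called, at 3.24-fold and 3.25-fold lower, where 0.988% of the genes tested were called lower.

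MHC class II molecules are heterodimers of an alpha and a beta chain that display peptides from endocytosed protein to CD4+ T cells. The chains assemble with the invariant chain, which blocks the peptide groove and guides them to endosomes, where proteases remove it and the DM heterodimer exchanges its last fragment for a peptide. The genes are expressed in dendritic cells, B cells and activated macrophages, and interferon-gamma induces them in many other cells. The transactivator CIITA binds no DNA itself and is recruited by a complex of RFX, CREB and NF-Y proteins that sits on the X and Y boxes of class II promoters.

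The study sequenced RNA of the perfused aortic arch from 29 mice, 1 library per mouse, to ask how DR acts on the vascular ageing that follows from reduced DNA repair. Ercc1Δ/− mice carry 1 null and 1 truncated, hypomorphic allele of Ercc1, which encodes a subunit of an endonuclease of nucleotide excision and crosslink repair, in every cell, and their Ercc1+/+ (WT) littermates served as controls. All mice were F1 hybrids of C57BL6J and FVB, ate AIN93G pellets and lived in single cages. Restriction began at 7 weeks of age and reached 30% from 9 weeks. After sample 003 (WT, 22 weeks, AL), which the study left out, had been set aside, there were 5 WT mice of 6 weeks on AL (2 female and 3 male), 4 WT mice of 22 weeks on AL (1 female and 3 male), 5 WT mice of 22 weeks on DR (2 female and 3 male), 5 Ercc1Δ/− mice of 6 weeks on AL (2 female and 3 male), 4 Ercc1Δ/− mice of 22 weeks on AL (2 female and 2 male) and 5 Ercc1Δ/− mice of 22 weeks on DR (2 female and 3 male).

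Counts on genes totalled 921167 to 9616382 per library over the 28 libraries, with a median of 3256708, and 400410 in sample 003. Levels below are normalized counts, which are counts scaled to 3683502 per library with TMM (trimmed mean of M values) factors. Ercc1 averaged 101 to 115 normalized counts in the 3 WT groups and 41.8 to 58.9 in the 3 Ercc1Δ/− groups, and it was called lower in all 3 comparisons of genotype. Smooth muscle markers summed to between 61570 and 157932 normalized counts in every library. The libraries are of bulk tissue, in which fewer cells that express a gene and less RNA per cell cannot be told apart. Sample 018 (WT, 22 weeks, AL), the only female left in its group, was far above that group for 5 members. Sample 003, the female set aside, had 330 H2-Aa, 210 H2-Ab1, 500 Cd74 and 50.0 H2-Eb1 normalized counts. Sample 018 had 332, 300.3, 546 and 121. The values of sample 003 came from only 33, 21, 50 and 5 raw counts. Sample 016 (Ercc1Δ/−, 22 weeks, DR) held 8816 normalized counts of serous cavity macrophage markers against 1287 to 1728 in the rest of its group. For the tested members, comparisons of diet, genotype and age that rest on samples 018 or 016 are given with and without them. Values of Ciita and of other genes include both samples unless stated. The sex term and the correlations are given with both included.

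H2-Aa, H2-Ab1, H2-Eb1, H2-DMa and H2-DMb1 lie in the class II region of chromosome 17. On build GRCm39, H2-DMa (ENSMUSG00000037649) spans 34338515 to 34358958, H2-DMb1 (ENSMUSG00000079547) spans 34372046 to 34379204, and H2-Ab1 (ENSMUSG00000073421) spans 34476663 to 34488393, all on the plus strand. H2-Aa (ENSMUSG00000036594) spans 34493404 to 34506798 on the minus strand, and the stretch at its start overlaps H2-Eb1 (ENSMUSG00000060586), which spans 34504236 to 34535648 on the plus strand. The library kit kept strand, but the strand setting of the counting is not given in the sources used here. Reads in the overlap may thus have counted for either gene or been dropped.

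The X and Y boxes can be read in the promoters of members that fell under DR, and 4 members were in the RefSeq promoter table used here (build GRCm38.p6). In the 250 bases before each start, both strands were searched for the Y box core ATTGG, which on the other strand reads CCAAT and which 33.8% of all 32851 promoters held, and for the X box core GNNACNGAT, which 6.53% held. An X core followed 10 to 35 bases later by ATTGG stood in 0.158% of the promoters, among them those of H2-Eb1 and H2-DMb1. The sequences below run 5′ to 3′ towards the start, with the cores in capitals. H2-Eb1 is shown from chr17:34305617-34305866 on the plus strand, H2-DMb1 from chr17:34152941-34153190 on the plus strand and H2-Aa, in which only the Y core was matched, from chr17:34287824-34288073 on the minus strand.
H2-Eb1: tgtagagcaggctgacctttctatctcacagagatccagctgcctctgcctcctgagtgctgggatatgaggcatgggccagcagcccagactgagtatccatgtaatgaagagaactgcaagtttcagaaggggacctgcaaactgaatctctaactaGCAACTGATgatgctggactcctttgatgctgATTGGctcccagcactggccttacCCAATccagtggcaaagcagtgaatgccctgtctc
H2-DMb1: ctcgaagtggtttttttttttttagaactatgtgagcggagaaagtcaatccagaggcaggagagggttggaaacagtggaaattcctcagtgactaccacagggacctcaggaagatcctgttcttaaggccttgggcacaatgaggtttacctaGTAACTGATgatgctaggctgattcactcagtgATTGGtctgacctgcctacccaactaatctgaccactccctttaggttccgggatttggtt
H2-Aa: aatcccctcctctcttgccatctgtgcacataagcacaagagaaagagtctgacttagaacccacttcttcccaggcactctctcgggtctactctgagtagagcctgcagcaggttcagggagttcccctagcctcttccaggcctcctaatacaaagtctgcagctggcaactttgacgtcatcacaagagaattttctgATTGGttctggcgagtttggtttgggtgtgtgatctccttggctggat

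In H2-Eb1 the X core ran from base −91 to −83 and the Y core from −59 to −55, with 23 bases between them, and a further Y core stood on the other strand at −35 to −31. In H2-DMb1 the X core ran from −94 to −86 and the Y core from −61 to −57, with 24 bases between them. The Y core of H2-Aa stood at −48 to −44. H2-DMa had 2 entries, of which 1 held no core and the other a Y core at −198 to −194. H2-Ab1, Cd74 and Ciita are named only. A match of letters describes the sequence and is not evidence of binding.

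H2-Eb1, which encodes the beta chain of the E molecule, had the smallest p-value of all 12353 genes tested for the diet effect in WT mice. It stood at 48.5, 121, 52.4 and 40.2 normalized counts in the 4 AL-fed WT mice of 22 weeks (samples 012, 018, 025 and 020) and at 14.7, 26.0, 7.26, 7.30 and 24.0 in the 5 WT mice on DR (samples 007, 017, 010, 028 and 021). Every AL-fed mouse was thus above every mouse on DR. The edgeR quasi-likelihood test gave a log2 fold change of −2.18 ± 0.23 (SE), a 4.54-fold lower level on DR, with a Benjamini-Hochberg adjusted p of 9.36e-06. In Ercc1Δ/− mice H2-Eb1 was 149, 53.0, 105 and 77.1 on AL (samples 005, 013, 004 and 026) and 16.5, 23.6, 28.6, 36.0 and 27.3 on DR (samples 006, 014, 029, 016 and 022). These groups did not overlap either, and the log2 fold change was −1.70 ± 0.27, 3.25-fold lower, with an adjusted p of 0.00132. At 6 weeks the 5 WT mice (samples 024, 001, 019, 011 and 009) had 25.2, 27.9, 5.71, 28.1 and 20.7, and the 5 Ercc1Δ/− mice (samples 002, 008, 015, 023 and 027) had 40.0, 37.2, 56.7, 24.8 and 70.4. The alpha chain partner, H2-Ea, had 0 to 2 counts in any library. C57BL/6 and FVB strains are known to carry class II haplotypes that make no E alpha chain, so H2-Eb1 transcript here cannot be read as E molecule.

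H2-Ab1, the beta chain of the A molecule, had the largest fold change of the 6 tested members in WT mice. In the same order of samples, its AL-fed WT mice of 22 weeks had 94.1, 300.3, 83.2 and 109 normalized counts, and those on DR had 31.4, 43.0, 13.1, 9.12 and 30.0. The groups did not overlap. The log2 fold change was −2.59 ± 0.29, 6.01-fold lower, with an adjusted p of 2.03e-04. In Ercc1Δ/− mice it had 338, 100.5, 240 and 149 on AL and 47.1, 39.4, 45.7, 69.6 and 70.9 on DR, again without overlap. The log2 fold change was −1.70 ± 0.32, 3.24-fold lower, with an adjusted p of 0.0127. At 6 weeks the values were 50.8, 52.1, 37.1, 40.2 and 43.6 in WT mice and 83.9, 82.9, 152, 66.4 and 211 in Ercc1Δ/− mice, and H2-Ab1 was the only member whose 2 genotypes did not overlap at that age.

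H2-Aa, the alpha chain of the A molecule, had 106.7, 332, 117 and 125 normalized counts in 22-week-old WT mice on AL and 44.8, 46.9, 8.71, 16.4 and 49.2 in those on DR. No mouse on DR reached the AL range. The log2 fold change was −2.40 ± 0.34, 5.28-fold lower, with an adjusted p of 0.00256. In Ercc1Δ/− mice H2-Aa had 413, 134, 291 and 139 on AL and 56.5, 47.2, 70.5, 108 and 70.9 on DR, where the groups also stood apart. Here the log2 fold change of −1.56 ± 0.37 had an adjusted p of 0.0507, just over the limit of 0.05. At 6 weeks WT mice had 47.2, 49.8, 48.5, 137 and 65.5, and Ercc1Δ/− mice had 79.0, 94.97, 128, 75.4 and 163.

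Cd74 (ENSMUSG00000024610; chromosome 18, 60936899 to 60945731 on the plus strand) encodes the invariant chain and had the highest level per kilobase of exon of the 7 members (145 normalized counts per kilobase in AL-fed Ercc1Δ/− mice of 22 weeks, against 80.6 for H2-Ab1, 56.9 for H2-Aa, 37.0 for H2-Eb1, 19.8 for H2-DMb1, 6.25 for H2-DMa and 0.741 for Ciita). It had 161, 546, 188 and 176 normalized counts in 22-week-old WT mice on AL and 60.8, 72.9, 17.4, 20.1 and 68.3 in those on DR. The groups did not overlap, and the log2 fold change was −2.53 ± 0.37, 5.79-fold lower, with an adjusted p of 0.0045. In Ercc1Δ/− mice Cd74 had 587, 229, 427 and 212 on AL and 58.8, 90.5, 87.6, 209 and 125 on DR. The highest mouse on DR, sample 016, lay just under the lowest AL-fed mouse. The log2 fold change was −1.44 ± 0.40 with an adjusted p of 0.0912, and without sample 016 it was −1.90 with an adjusted p of 0.00616. At 6 weeks WT mice had 99.2, 100.4, 40.0, 149 and 119, and Ercc1Δ/− mice had 166, 151, 206, 144 and 307.

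H2-DMa and H2-DMb1 encode the chains of the DM peptide exchange factor and, per kilobase of exon, were lower than the A chains and Cd74. H2-DMa had 10.7, 47.4, 12.2 and 23.1 normalized counts in 22-week-old WT mice on AL and 6.68, 7.16, 4.35, 4.87 and 1.199 in those on DR, without overlap (log2 fold change −2.21 ± 0.36, 4.62-fold lower, adjusted p = 0.00177). In Ercc1Δ/− mice it had 42.0, 16.7, 27.1 and 22.4 on AL and 7.06, 11.8, 7.62, 14.4 and 6.82 on DR, which did not overlap either (−1.44 ± 0.47, adjusted p = 0.112). H2-DMb1 had 19.4, 43.3, 30.4 and 29.1 in AL-fed WT mice and 20.0, 11.7, 7.26, 9.73 and 13.2 on DR, where sample 007 on DR exceeded sample 012 on AL (−1.33 ± 0.27, 2.52-fold lower, adjusted p = 0.0117). It was the only member whose WT groups overlapped. In Ercc1Δ/− mice H2-DMb1 had 47.3, 25.1, 36.1 and 24.9 on AL and 9.41, 3.94, 7.62, 21.6 and 25.9 on DR (−1.08 ± 0.37, adjusted p = 0.135). H2-DMb1 and its neighbour H2-DMb2, which had 0 to 17 counts, are near-identical, so that reads may have been split between them. At 6 weeks H2-DMa ranged from 0 to 12.1 in WT and from 7.80 to 25.0 in Ercc1Δ/− mice, and H2-DMb1 from 13.1 to 25.7 and from 25.4 to 40.7.

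Ciita (ENSMUSG00000022504; chromosome 16, 10297923 to 10347694 on the plus strand), the class II transactivator, had 0 to 72 counts per library and did not pass the filter on low counts, so it has no value in the main fit. It had 6.79, 33.2, 7.60 and 8.55 normalized counts in 22-week-old WT mice on AL and 4.01, 1.95, 0, 0 and 2.40 in those on DR. The groups did not overlap. The two-sided exact permutation test of the means gave p = 0.00794, or 0.0556 after Benjamini-Hochberg adjustment over the 7 comparisons of this gene. With 126 regroupings of these mice, 0.00794 was the smallest p that the test could give. Given the p-values of the other comparisons, groups without overlap could not have passed the limit for a call after adjustment. The adjusted value is thus not evidence against a difference. In Ercc1Δ/− mice Ciita had 10.5, 2.79, 14.4 and 4.98 on AL and 0, 3.94, 1.91, 0 and 6.82 on DR, which overlapped (exact permutation p = 0.0794, adjusted 0.185). At 6 weeks it ranged from 0 to 8.31 in WT and from 3.38 to 11.2 in Ercc1Δ/− mice. With no filter on low counts edgeR gave Ciita a log2 fold change of −3.20 ± 0.44 in WT mice (adjusted p = 3.15e-08 over 26720 genes) and −1.28 ± 0.67 in Ercc1Δ/− mice (adjusted p = 0.618). This fit included sample 018, which had the 33.2 normalized counts and held 72 of the 109 raw Ciita counts of its group. The WT value without sample 018 was not determined, so it may rest largely on that mouse.

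**Figure D1:**
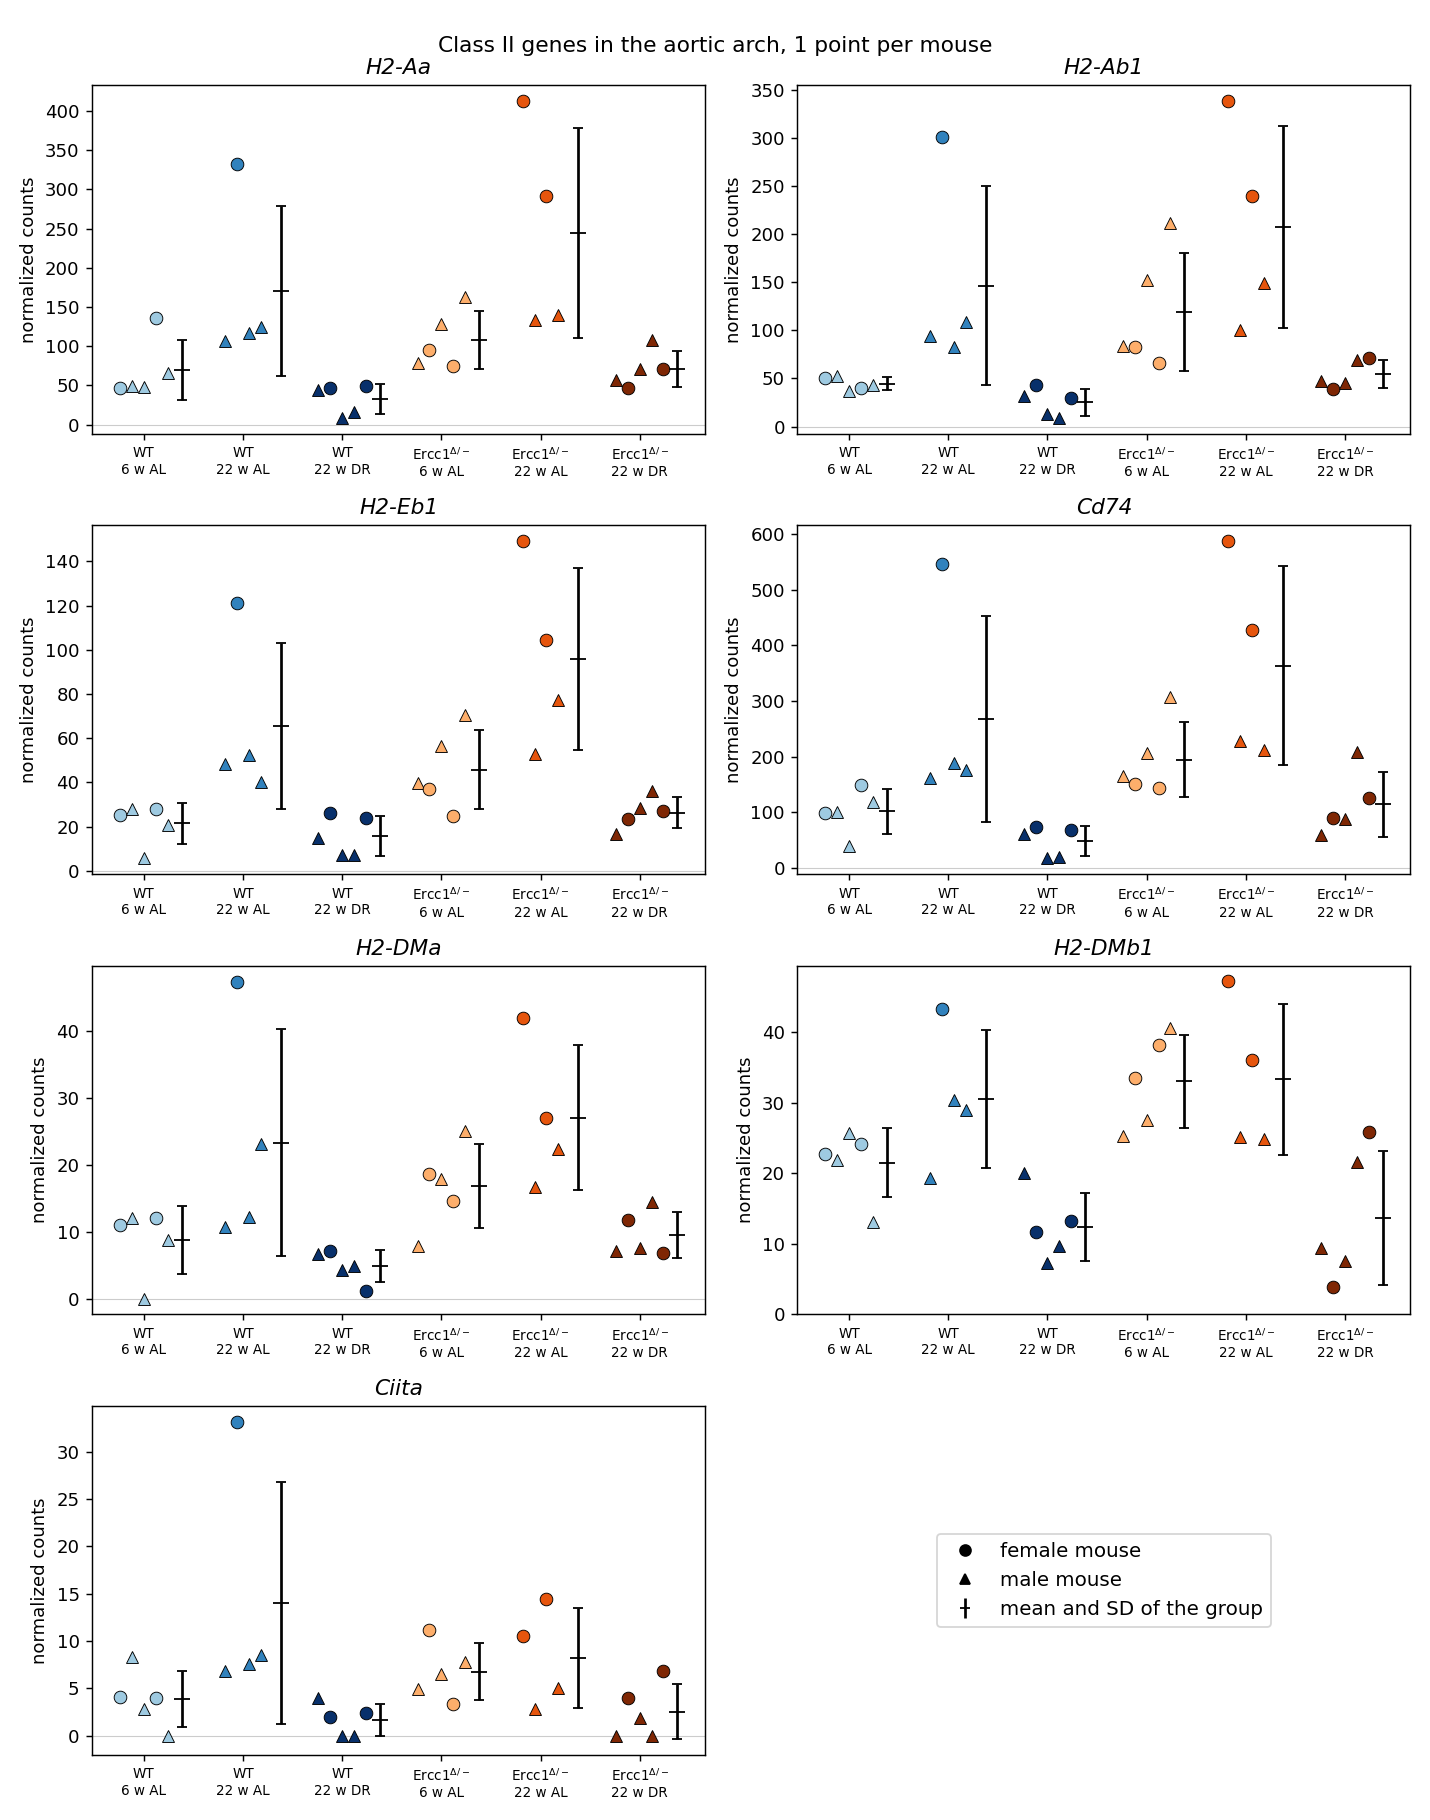
Normalized counts of the 7 class II genes (y axis, 1 panel per gene, own scale) in the 28 aortic arches by group (x axis), with circles for female and triangles for male mice and bars for the group mean and SD. For H2-Ab1 the 5 WT mice on DR lie between 9.12 and 43.0 and the 4 AL-fed WT mice of 22 weeks between 83.2 and 300.3.

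In WT mice, 6 of the 6 members tested were called lower on DR, as were 0.939% of all tested genes. For 6 of all 7 members, all but H2-DMb1, AL-fed and restricted mice did not overlap. The share of all genes whose groups did not overlap was not counted, in this or any other comparison. Counts of members without overlap are thus descriptions only. The median log2 fold change of the members was −2.31 against 0.01 for all genes tested. The values of H2-Ab1, H2-DMa, H2-Aa, Cd74 and H2-DMb1 ranked 6, 12, 20, 28 and 42 by p-value of the 12353 genes. Without sample 018, 4 members remained called (H2-Eb1 at −1.98, H2-Ab1 at −2.28, Cd74 at −2.22 and H2-Aa at −2.13), whereas H2-DMa (−1.58, adjusted p = 0.0822) and H2-DMb1 (−1.22, adjusted p = 0.103) were not. In a fit of male mice alone, which leaves out sample 018, H2-Aa, H2-Ab1 and H2-Eb1 were called, as were 0.105% of all tested genes in the lower direction.

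In Ercc1Δ/− mice, 2 of the 6 members were called lower on DR (H2-Ab1 and H2-Eb1), as were 0.988% of all tested genes. The unadjusted p was under 0.05 for 6 of 6 members, as it was for 15.0% of all genes. The median log2 fold change of the members was −1.50 against 0.00 for all genes tested. Without sample 016, 4 members were called, with H2-Aa (−1.85, adjusted p = 0.0151) and Cd74 gained. Without sample 018, which is part of the same fit, 4 were called as well. DESeq2 also called 4, and leaving the sex term out left 1. Of the 7 members, 5 had AL-fed and restricted Ercc1Δ/− mice that did not overlap, all but H2-DMb1 and Ciita.

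The size of the diet effect was then compared between the genotypes. No member was called for the interaction of genotype and diet by the edgeR test or by DESeq2, 0 had an unadjusted p under 0.05, and 0.0971% of all tested genes were called. The 6 differences between the log2 fold changes (Ercc1Δ/− minus WT) were between 0.25 for H2-DMb1 and 1.09 for Cd74, so that each value was nearer to 0 in Ercc1Δ/− mice. For Cd74 the 95% interval of this difference ran from −0.10 to 2.28 and for H2-Ab1 from −0.05 to 1.83, with adjusted p-values of 0.622 and 0.602. Without sample 018 the differences were smaller, 0.72 for Cd74 and 0.53 for H2-Ab1, and that of H2-DMa was −0.03. Without sample 016 they were 0.66 for Cd74 and 0.70 for H2-Ab1. Males alone also leave out sample 018, and there the differences did not all shrink. They were 1.42 for Cd74, 1.37 for H2-Aa, 1.11 for H2-Ab1, 0.94 for H2-Eb1, 0.37 for H2-DMa and 0.04 for H2-DMb1, and none was called. A call in only 1 genotype does not show that the genotypes differ.

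**Figure D2:**
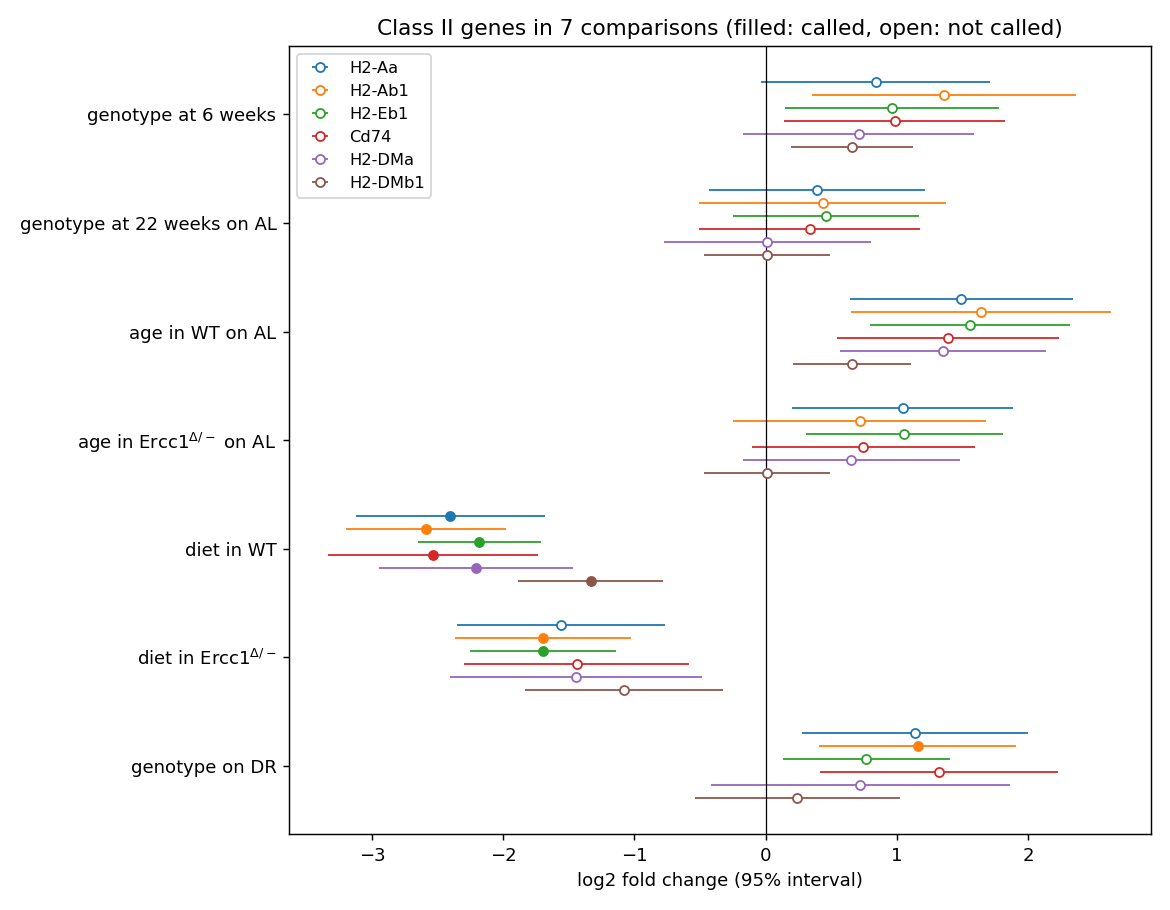
Log2 fold changes (x axis) of the 6 tested members in 7 comparisons (y axis), with 95% intervals and filled points where called. All 12 diet values lie below 0, from −1.08 to −2.59, and 8 of them are called, whereas 1 value of the other 5 comparisons is called, H2-Ab1 for genotype on DR.

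On DR, Ercc1Δ/− mice had more H2-Ab1 than WT mice (log2 fold change 1.16 ± 0.35, adjusted p = 0.0408), and it was the only member called of 6, where 5.97% of all tested genes were called higher. Cd74 (1.32 ± 0.42, adjusted p = 0.0548), H2-Aa (1.14 ± 0.40, adjusted p = 0.0806), H2-Eb1 (0.77 ± 0.31, adjusted p = 0.109), H2-DMa (0.72 ± 0.55) and H2-DMb1 (0.24 ± 0.38) were not called, and the groups overlapped for all 7 members. The count rested on single mice, with 0 to 4 members called when 1 mouse of either group was left out and 0 without sample 016, 006, 029, 010, 017, 021 or 028. This comparison uses the same restricted mice as the diet comparisons.

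Between genotypes on AL no member was called. At 22 weeks the log2 fold changes (Ercc1Δ/− over WT) were 0.01 for H2-DMa and H2-DMb1, 0.34 for Cd74, 0.39 for H2-Aa, 0.43 for H2-Ab1 and 0.46 for H2-Eb1. The edgeR test gave an unadjusted p under 0.05 for 0 of 6 and DESeq2 called 0, in a comparison in which 12.0% of all tested genes were called. The 95% interval for H2-Ab1 ran from −0.51 to 1.37. These values changed when sample 018, the only female of its group, was left out. They were then 0.16 for H2-DMb1, 0.72 for H2-DMa, 0.88 for H2-Aa, 0.92 for Cd74, 1.02 for H2-Eb1 and 1.16 for H2-Ab1. The H2-Ab1 ratio thus went from 1.35-fold to 2.24-fold, and no member was called either (adjusted p 0.0867 to 0.799). Males alone also leave out sample 018. They gave 0.41 for H2-Ab1, 0.46 for H2-Eb1, 0.23 for H2-Aa, 0.33 for Cd74, 0.41 for H2-DMa and −0.11 for H2-DMb1. Females alone, with sample 018 as the only WT mouse, gave −0.08, 0.04, 0.06, −0.13, −0.50 and −0.09 in the same order. The larger values without sample 018 were thus not seen in males alone. The female fit cannot show values without sample 018, since that sample is its only WT mouse. At 6 weeks the 6 values were between 0.66 and 1.36, highest for H2-Ab1 (1.36 ± 0.47, adjusted p = 0.208), with an unadjusted p under 0.05 for 4 of 6 members, 1 member called by DESeq2, and 1.70% of all tested genes called.

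From 6 to 22 weeks on AL, all 6 tested members had higher fitted levels in WT mice, and none was called by the edgeR test, where 0.235% of all tested genes were called. The log2 fold changes were 1.64 ± 0.46 for H2-Ab1 (adjusted p = 0.222), 1.56 ± 0.36 for H2-Eb1 (0.0895), 1.49 ± 0.40 for H2-Aa (0.19), 1.39 ± 0.39 for Cd74 (0.222), 1.35 ± 0.38 for H2-DMa (0.172) and 0.66 ± 0.22 for H2-DMb1 (0.292). The unadjusted p was under 0.05 for 6 of 6 members and 8.64% of all genes, and DESeq2 called 3 members. Without sample 018 the values were between 0.53 for H2-DMb1 and 1.09 for H2-Aa, with H2-Ab1 at 1.03 and H2-DMa at 0.75, and none was called (adjusted p 0.365 to 0.818). For 3 members, H2-Ab1, H2-Eb1 and Cd74, every WT mouse of 22 weeks was above every WT mouse of 6 weeks. Ciita had a mean of 3.85 ± 2.99 (SD, n = 5) normalized counts at 6 weeks and of 14.0 ± 12.8 (SD, n = 4) at 22 weeks (exact permutation p = 0.0238, adjusted 0.0833), a difference that did not pass the adjustment. In Ercc1Δ/− mice the values were between 0.01 for H2-DMb1 and 1.06 for H2-Eb1. There 0 members were called by edgeR or DESeq2, 2 had an unadjusted p under 0.05, and 4.69% of all tested genes were called. These values pool sexes that were unlike. Females alone gave 2.02 for H2-Aa, 1.92 for H2-Ab1, 1.99 for H2-Eb1, 1.76 for Cd74, 1.00 for H2-DMa and 0.19 for H2-DMb1. Males alone gave 0.16, −0.23, 0.26, −0.04, 0.32 and −0.30 in the same order. Whether the change with age depends on sex was not tested. For the interaction of genotype and age 0 members were called by either tool, 0 had an unadjusted p under 0.05, and 0.842% of all tested genes were called.

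Group means placed the 6 groups in the same order for H2-Aa, H2-Ab1, H2-Eb1, Cd74 and H2-DMa. For Cd74, AL-fed Ercc1Δ/− mice of 22 weeks (364 ± 178 normalized counts, SD, n = 4) came before AL-fed WT mice of 22 weeks (268 ± 186, n = 4), Ercc1Δ/− mice of 6 weeks (195 ± 67.1, n = 5), Ercc1Δ/− mice on DR (114 ± 57.9, n = 5), WT mice of 6 weeks (101 ± 39.8, n = 5) and WT mice on DR (47.9 ± 27.0, n = 5). The ranges of every pair of neighbours in this order overlapped. H2-DMb1 and Ciita shared the first 3 and last 3 groups with it but not their order.

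Female mice were the highest AL-fed mice of 22 weeks for every member. Samples 018, 005 and 004, the 3 females of these 8 mice, had 291 to 413 H2-Aa counts against 106.7 to 139 in the 5 males, and 240 to 338 H2-Ab1 counts against 83.2 to 149. In the fit over all 22-week mice the sex term (male minus female, log2) was −1.13 ± 0.21 for H2-Ab1 (adjusted p = 0.0179) and −1.02 ± 0.17 for H2-Eb1 (adjusted p = 0.00211), which were called lower in males, as were 0.688% of all tested genes. H2-DMa (−0.97, adjusted p = 0.0832), H2-Aa (−0.99, 0.0795), Cd74 (−1.02, 0.0963) and H2-DMb1 (−0.48, 0.333) were not called. In the fit over AL-fed mice of both ages no member was called for sex (−0.45 to −0.86, adjusted p 0.701 to 0.986), where 0.0648% of all genes were called lower in males.

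In WT mice on DR the 2 females had 46.9 and 49.2 H2-Aa counts and the 3 males 8.71 to 44.8, and the females had 24.0 and 26.0 H2-Eb1 counts against 7.26 to 14.7 in the males. In these mice the females were also above the males for Cd74, at 68.3 and 72.9 against 17.4 to 60.8, whereas H2-Ab1 overlapped. In Ercc1Δ/− mice on DR the sexes overlapped for H2-Aa (47.2 and 70.9 in females, 56.5 to 108 in males), H2-Ab1, H2-Eb1 and Cd74. Whether the difference between the sexes depends on diet was not tested. In female Ercc1Δ/− mice alone, 2 on each diet, 4 members were called lower on DR (H2-Aa at −2.45, H2-Eb1 at −2.25, H2-Ab1 at −2.22 and Cd74 at −2.14), as were 0.445% of all tested genes. The female WT mice give no test to rely on, since sample 018 was the only one fed AL at 22 weeks. In male Ercc1Δ/− mice alone 0 members were called, where 0.413% of all tested genes were called lower, with H2-Eb1 at −1.28 (adjusted p = 0.136) and H2-Ab1 at −1.23 (adjusted p = 0.155). These fits by sex and the test of the sex term were chosen after the levels by sex had been seen.

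Markers of cells that carry class II molecules were set beside these results. Of all tested genes, 0.939% were called lower on DR in WT mice and 0.988% in Ercc1Δ/− mice. For genotype at 22 weeks on AL, 12.0% were called in either direction. These shares go with the counts of called markers and pathway genes below. The summed level of 12 macrophage markers was 1569 to 2113 in 22-week-old WT mice on AL and 1338 to 1821 on DR, and 2690 to 4730 in AL-fed Ercc1Δ/− mice and 2136 to 5427 on DR, where sample 016 was the highest and the next was at 2380. Of the 11 tested, 1 was called lower on DR in WT mice (C1qb, a complement chain made by macrophages, −0.66, adjusted p = 0.0256) and 5 in Ercc1Δ/− mice (Cd68 −1.22, Mrc1 −1.01, C1qa −0.99, C1qb −0.98 and C1qc −0.92), or 6 without sample 016. Called or not, 9 of the 11 were lower on DR in WT mice (median log2 fold change −0.38) and 8 in Ercc1Δ/− mice (median −0.41). In WT mice the 2 that were higher were Mertk (0.11) and Lyve1 (0.40). At 22 weeks on AL, 8 were called higher and 1, Mertk, lower in Ercc1Δ/− mice, a comparison in which no class II member was called.

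The sum of H2-Aa, H2-Ab1, H2-Eb1 and Cd74 was therefore also taken per 100 macrophage marker counts. This ratio had a low, median and high value of 21.3, 26.4 and 79.7 in 22-week-old WT mice on AL and 3.21, 9.41 and 11.7 on DR. In Ercc1Δ/− mice it was 17.6, 22.9 and 31.5 on AL and 7.78, 9.17 and 12.4 on DR. The AL-fed and restricted mice did not overlap in either genotype, sample 016 (7.78) and sample 018 (79.7) included. Markers with many counts, such as Mertk, weigh most in the marker sum, and most markers were lower on DR. The ratio is thus not a level of class II per macrophage.

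**Figure D3:**
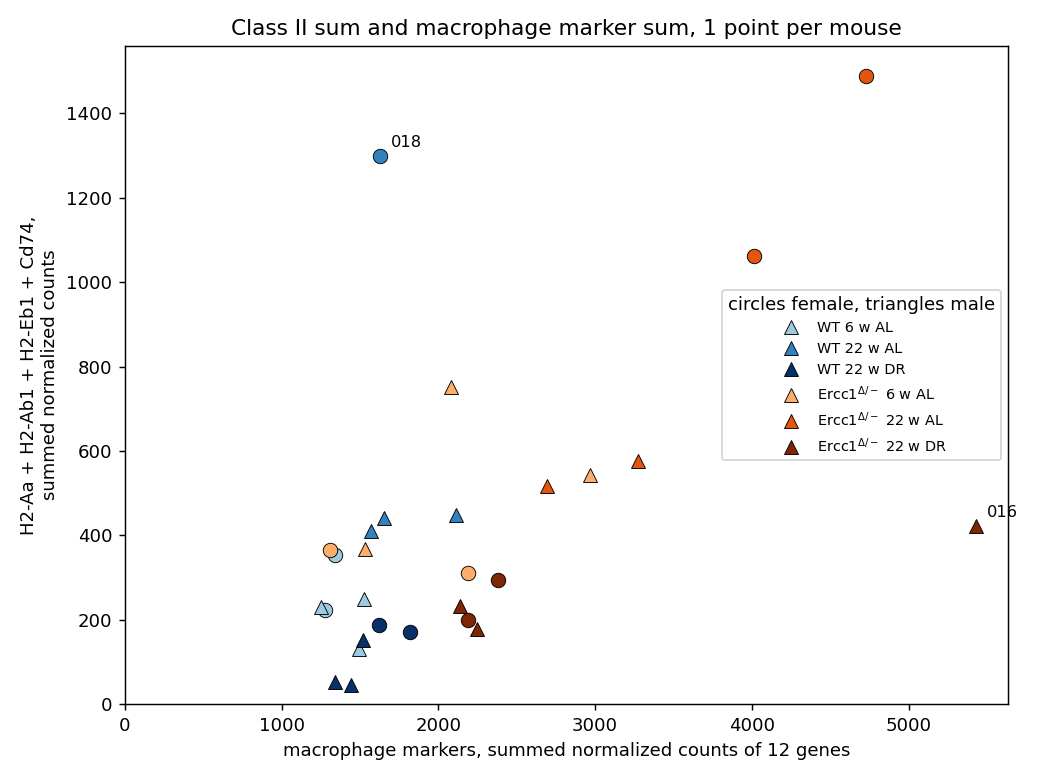
Summed normalized counts of H2-Aa, H2-Ab1, H2-Eb1 and Cd74 (y axis) against summed normalized counts of 12 macrophage markers (x axis), 1 point per mouse, with circles for females and triangles for males. Sample 016, on DR, has the highest macrophage sum (5427) and a class II sum of 422, and sample 018, on AL, has a class II sum of 1299 at a macrophage sum of 1631.

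Dendritic cell markers were scarce, with Flt3, Ccr7, Xcr1 and Clec9a at 0 counts in 17, 18, 20 and 16 of the 28 libraries. The sum of 10 of them was 91.4 to 99.0 in 22-week-old WT mice on AL and 59.5 to 92.3 on DR, and 112 to 165 and 68.2 to 102 in Ercc1Δ/− mice. Zbtb46 alone held 72.0% of the raw counts of these genes and stood at −0.15 (adjusted p = 0.725) in WT and 0.04 (adjusted p = 0.939) in Ercc1Δ/− mice under DR. The other 9 genes summed to 20.9 to 35.04 on AL and 8.71 to 18.0 on DR in WT mice, and to 44.8 to 83.9 and 3.94 to 26.4 in Ercc1Δ/− mice. Of the 2 tested, Irf8, a factor that dendritic cells and other myeloid and B cells use, was called lower on DR in Ercc1Δ/− mice (−2.14 ± 0.42, adjusted p = 0.00835) and stood at −1.09 in WT mice (adjusted p = 0.104). B cell markers Ms4a1 and Pax5 were at 0 in 20 and 23 libraries. The sum of 7 B cell markers was 23.3 to 51.3 in AL-fed WT mice and 3.65 to 25.4 on DR, and 53.6 to 87.1 and 3.94 to 132 in Ercc1Δ/− mice, where sample 016 held the 132 and the next mouse 23.5. The only B cell marker tested, Ighm, stood at −1.79 (adjusted p = 0.149) and −1.52 (adjusted p = 0.228) under DR. The medians of the dendritic cell and B cell sums were lower on DR in both genotypes, as the class II genes were, and their part in the class II result was not tested.

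Other genes of the pathway were read from lists of their roles, and the shares of all tested genes called are those given above with the macrophage markers. Of 5 further class II chains and chaperones (H2-Ea, H2-Eb2, H2-Oa, H2-Ob and H2-DMb2) none passed the filter. Of 10 endosomal proteases and their partners, all tested, 0 were called lower on DR in WT mice and 3 in Ercc1Δ/− mice, namely Ctsc (−0.73 ± 0.13, adjusted p = 0.00602), which activates serine proteases, Cst3 (−0.46 ± 0.09, adjusted p = 0.00791), a cathepsin inhibitor, and Ctsz (−0.44 ± 0.09, adjusted p = 0.0084). Ctss, the protease that degrades the invariant chain, stood at −0.74 in WT mice (adjusted p = 0.41) and −0.88 in Ercc1Δ/− mice (adjusted p = 0.2). Lgmn, an asparaginyl endopeptidase, stood at −0.07 (0.834) and −0.38 (0.0515), and Ifi30, the thiol reductase GILT, at 0.05 (0.926) and 0.10 (0.777). At 22 weeks on AL, 6 of the 10 were called higher in Ercc1Δ/− than in WT mice, Ctss the most (2.14 ± 0.25, adjusted p = 1.26e-05, with 123 to 257 against 27.2 to 53.0 normalized counts), beside Cst3 (0.65), Ctsc (0.54), Ctsz (0.52), Lgmn (0.42) and Ctsl (0.36), and Ifi30 stood at 0.34 (adjusted p = 0.0515). No class II member was called in that comparison.

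Of 7 promoter-bound factors that recruit CIITA, Rfx5 alone was called lower on DR in WT mice (−0.85 ± 0.18, adjusted p = 0.0145), from 75.2 to 111 normalized counts on AL to 42.0 to 60.8 on DR, and without sample 018 it was not called (−0.70, adjusted p = 0.144). In Ercc1Δ/− mice Rfx5 stood at 0.17 under DR (adjusted p = 0.805) and was lower than in WT mice at 22 weeks on AL (−0.74 ± 0.19, adjusted p = 0.0134). Of 7 coactivators and silencers tested, Nlrc5, the related transactivator of class I genes, was called lower on DR in WT mice (−1.73 ± 0.32, adjusted p = 0.00567), and it was called for the interaction of genotype and diet (2.56 ± 0.52, adjusted p = 0.0497). Nlrc5 was low, at 2.67 to 12.0 normalized counts in WT mice on DR and 9.11 to 42.4 on AL, and neither call held without sample 018 (−1.32, adjusted p = 0.214, and 2.06, adjusted p = 0.334). Ep300, a histone acetyltransferase, was lower in Ercc1Δ/− mice at 22 weeks on AL (−0.48, adjusted p = 0.0162).

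Of 10 genes of the interferon-gamma input, 8 were tested and 1 was called lower on DR in Ercc1Δ/− mice (Ifngr2, a receptor chain, −0.51 ± 0.13, adjusted p = 0.0432, or 0.0677 without sample 016), and 0 in WT mice. Ifng itself had 0 counts in 28 of 28 libraries. By counting error alone, 0 in 1 library taken singly allows up to 3 expected counts, and the 28 libraries together allow far fewer per library. Irf1, a target that drives Ciita, stood at −0.25 (adjusted p = 0.386) in WT and −0.24 (adjusted p = 0.445) in Ercc1Δ/− mice under DR. Ifngr1 was higher in Ercc1Δ/− mice at 22 weeks on AL (0.39 ± 0.10, adjusted p = 0.0113). Of 25 genes of class II transport tested, 0 were called on DR in WT mice and 2 in Ercc1Δ/− mice, Ap1s2, an adaptor subunit (−0.59, adjusted p = 0.0259), and Lamp1, a lysosomal membrane protein (−0.30, adjusted p = 0.0442). Sec31a, a COPII coat subunit, was lower in Ercc1Δ/− mice at 22 weeks on AL (−0.36, adjusted p = 0.0106). None of the 2 co-stimulation genes and 1 gene of surface turnover tested was called in either diet comparison.

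**Figure D4:**
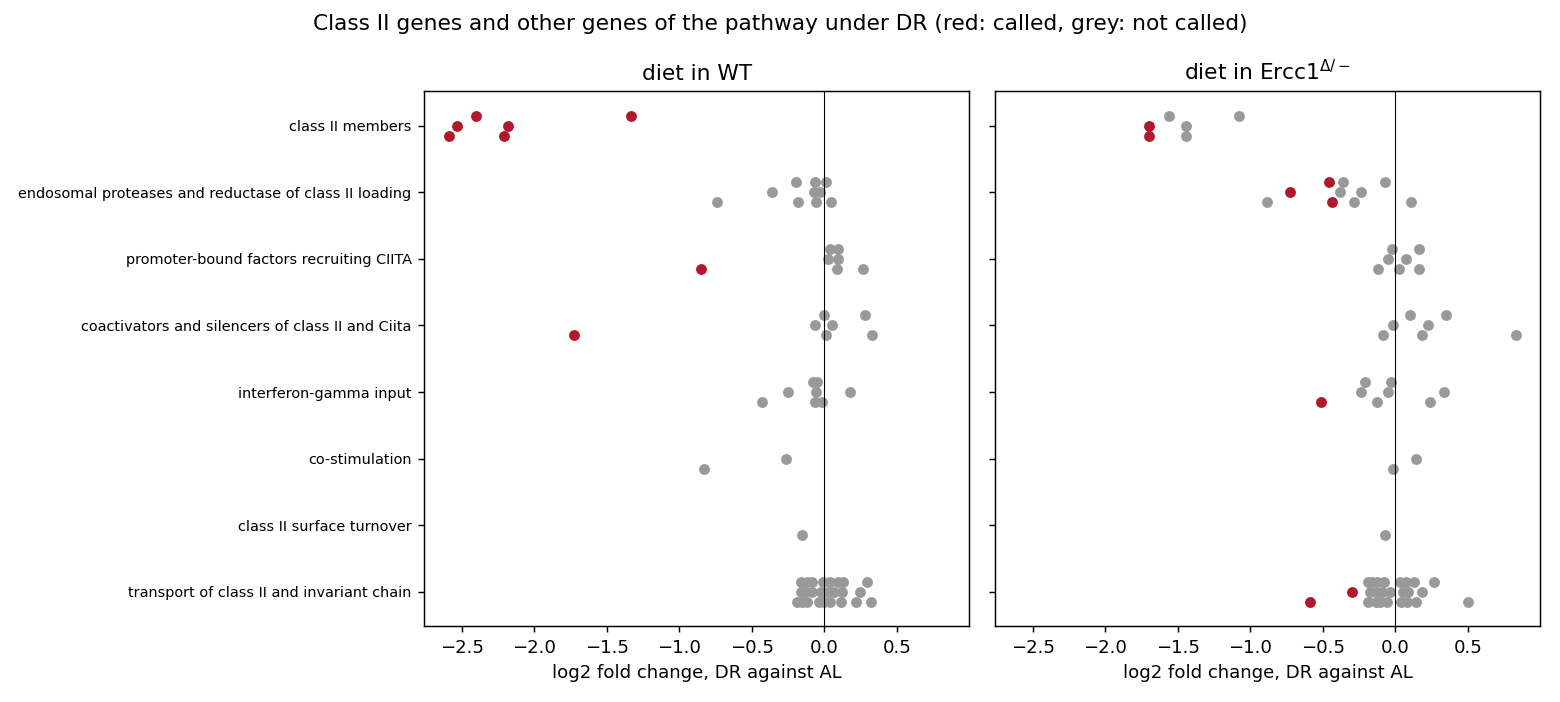
Log2 fold changes under DR (x axis) in WT (left) and Ercc1Δ/− mice (right) for the 6 class II members and the tested genes of 7 lists of pathway roles (y axis), 1 point per gene, red where called. Apart from Nlrc5 at −1.73 in WT mice, the other genes lie above −1.08, and the members lie at −1.08 and below in both genotypes.

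Within groups, the members varied together from mouse to mouse. After log2 levels had been centred on their group, Pearson correlations over the 28 libraries were between 0.780 and 0.914 for pairs among H2-Aa, H2-Ab1, H2-Eb1 and Cd74, and between 0.180 (H2-DMa with H2-DMb1) and 0.642 for pairs with a DM chain. With levels centred on group and sex together, the pairs among these 4 genes were lower, between 0.543 and 0.831, and those with a DM chain were between −0.0028 and 0.775. These are descriptions over libraries that differ in depth, which scatters the low DM chains more. After centring on group, the 10 other genes most like the mean of H2-Aa, H2-Ab1, H2-Eb1 and Cd74 were Sp100 (r = 0.777), H2-Q4 (0.751), Oas2 (0.747), Polr3c (0.743), Septin11 (0.732), Lgals9 (0.729), H2-K1 (0.716), Xaf1 (0.707), Palmd (0.705) and Ucp2 (0.698), and with sex centred as well their r was between 0.359 (H2-K1) and 0.657 (Septin11). H2-Q4 and H2-K1 are class I heavy chains, which share reads with close relatives, and Oas2, Sp100 and Xaf1 are known as interferon-induced genes. Of these 10, Sp100 (−0.78, adjusted p = 0.036) and H2-Q4 (−1.13, adjusted p = 0.00212) were called lower on DR in WT mice, and H2-K1 (−0.49, adjusted p = 0.0337) in Ercc1Δ/− mice.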

How the data were processed

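The authors aligned the reads to GRCm39 with STAR 2.7.10a, removed duplicates by molecular identifiers with UMI-tools 1.1.2 and counted reads per gene with HTSeq 2.0.2, as named in the submitters' processing notes and the study's methods, and deposited raw whole-number counts. HTSeq summary lines, among them 7.27% to 10.1% of reads outside genes, were kept out. The 12353 genes that exceeded 10 counts in over 10 of the 28 samples entered the test, which used edgeR 4.0.16 in R 4.3.3 (TMM, robust quasi-likelihood, a model of group and sex, Benjamini-Hochberg adjustment). limma 3.58.1 was loaded with it and DESeq2 1.42.0 was an alternative. One fit over the 18 samples of AL-fed mice gave age and genotype on AL, and another over the 18 samples of 22 weeks gave diet and genotype under DR. A call needed an adjusted p of at most 0.05 and a 1.2-fold change (0.263 on the log2 scale), interactions only the p. Intervals are 95% from the t quantile at the degrees of freedom of the F test, whose p-values, like the adjusted p-values of single genes above, are edgeR's unless stated. The test was checked on simulated data. Each sample is a separate mouse.

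Class II genes are polymorphic, and the reads of F1 hybrids of FVB were aligned to a C57BL/6 reference, which can lower the counts of the FVB alleles in all groups alike. Named are the members, the pathway genes called for diet in Ercc1Δ/− or genotype at 22 weeks on AL, those called for diet in WT or the interaction (chosen after their values were seen), fixed pathway genes, and the 10 genes most like the members. Results that need some items are left out. Members and lists were chosen with earlier results of these data known, and the serous cavity list was written after genes of sample 016 had been seen. Permutation p-values are given for Ciita alone, adjusted over its 7 comparisons. Promoters are RefSeq's and gene positions GENCODE's. Alternatives were other normalizations, filters, samples, covariates, dispersions, thresholds, DESeq2, thinned depth and each sample left out.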

Additional observations from a re-analysis of the deposited data

Results flagged for a closer look

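Of 78 groups of values tested, 15 had a single mouse apart from the rest (its highest or lowest value, by Dixon's criterion), where chance gives about 5%. Sample 018, the only female of the 4 AL-fed WT mice of 22 weeks, was the high value for H2-Aa (332 normalized counts), H2-Ab1 (300.3), H2-Eb1 (121), Cd74 (546) and Ciita (33.2). Among WT mice of 6 weeks, H2-Aa was high in sample 011 (137), H2-DMa was at 0 in sample 019, and B cell markers (80.8) and T cell markers (44.6) were high in sample 001. Sample 016 (Ercc1Δ/− on DR) was the high value of its group for macrophage markers (5427), B cell markers (132), thymus and lymph node markers (254) and serous cavity macrophage markers (8816). Macrophage markers were high in sample 020 (2113; WT, 22 weeks, AL) and serous cavity macrophage markers in sample 013 (1780; Ercc1Δ/−, 22 weeks, AL).

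Nlrc5 was the only gene of the members and pathway lists whose diet effect differed between the genotypes by the interaction term (2.56 on the log2 scale, adjusted p = 0.0497), a call that was lost without sample 018 or sample 016.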

How the results depend on the processing

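The number of members called moved in these settings. Unless stated above, these counts, and those for DESeq2 and for samples left out, come without the share of all genes called in that setting. A moved count can thus reflect the setting as a whole and is not a result about the members. For genotype at 6 weeks (main 0) DESeq2 called 1 and males alone 2. For age in WT mice (main 0) DESeq2 called 3, the compared groups alone 2, all 6 groups in 1 fit 1, and females alone 3. For age in Ercc1Δ/− mice (main 0) females alone gave 3. For diet in WT mice (main 6) males alone gave 3. For diet in Ercc1Δ/− mice (main 2) DESeq2 gave 4, no sex term 1, males alone 0 and females alone 4. For genotype on DR (main 1) DESeq2 gave 4, sample 003 added 2, males alone 3, and no filter, no sex term, all 6 groups, thinned depth and females alone 0 each. With 1 sample left out the counts were 0 to 2 for age in Ercc1Δ/− mice (2 without sample 027), 4 to 6 for diet in WT mice (4 without sample 018), 2 to 4 for diet in Ercc1Δ/− mice (4 without sample 016) and 0 to 4 for genotype on DR. The fits by sex were chosen after seeing the data, and in females AL-fed WT mice of 22 weeks are sample 018 alone, so their counts for WT mice rest on 1 mouse.

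Signs turned only for values that were not called. For genotype at 22 weeks on AL, H2-DMa was −0.0020 with RLE size factors, −0.070 with no filter, −0.22 with the compared groups alone, −0.64 at thinned depth and −0.50 in females, and H2-DMb1 was −0.00098, −0.062 and −0.10 in the first 3 of these, −0.11 in males and −0.088 in females, where H2-Ab1 was −0.083 and Cd74 −0.13. For age in Ercc1Δ/− mice, H2-DMb1 was −0.0093 with no filter, −0.013 with the earlier dispersion method and −0.30 in males, where H2-Ab1 was −0.23 and Cd74 −0.041. Thinned depth gave 0.0038 for H2-DMb1 (genotype by age), −0.066 for H2-DMa (genotype on DR) and −0.21 for H2-Eb1 (genotype by diet), and males gave −0.085 for H2-DMb1 (genotype on DR). With 1 sample left out the ranges that crossed 0 were those of H2-DMa (−0.19 to 0.72) and H2-DMb1 (−0.15 to 0.16) for genotype at 22 weeks on AL, H2-DMb1 for age in Ercc1Δ/− mice (−0.15 to 0.12) and genotype on DR (−0.12 to 0.60), H2-Aa (−0.72 to 0.059), H2-Eb1 (−0.81 to 0.084) and H2-DMa (−1.02 to 0.015) for genotype by age, and H2-DMa (−0.035 to 1.23) and H2-DMb1 (−0.14 to 0.67) for genotype by diet. The causes were not tested. No paired analysis was possible because each mouse gave 1 sample with its own number. Depth limits Ciita and the DM chains, the shallowest libraries holding 921167 and 955589 counts.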
